A study of Mus musculus with 35 samples.

Results

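NRCWE-045 was compared with NRCWE-043 in mouse lung at 18 µg, using the 5 arrays titled NRCWE-045_D1 18µg and the 5 arrays titled NRCWE-043_D1 18µg, which are 10 of the 35 arrays of the series. Both are code names of materials that the series title calls nanomaterials, and the titles and doses alone decided which arrays were compared. Female C57BL/6 mice of 5 to 7 weeks received a single instillation of 18 µg in 40 µl into the trachea, and lungs were taken 24 h later (day 1). Beside these 2 groups the series holds 5 arrays each of NRCWE-044 at 18 µg, of the 3 materials at 54 µg, and of controls at dose 0. The labels do not say what the controls received. Each array measured 200 ng of lung RNA in Cy5 against a universal mouse reference RNA from 11 cell lines in Cy3, in the same orientation throughout, so a value is a log2 ratio of lung to reference RNA, and a difference is NRCWE-045 minus NRCWE-043 on that scale. The RNA came from random sections of lung, which hold every cell type of the organ, and the labels do not state that the 5 samples of a group are separate mice. The p-values therefore measure the spread between these samples, part of which may be technical.

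Particles that reach the alveoli are taken up by macrophages and touch the epithelium, and the lung can answer with chemokines that draw neutrophils and monocytes, with acute phase proteins, and with genes of the NRF2 response to oxidants. Heme oxygenase 1, encoded by Hmox1, degrades heme and is among the best known genes of that response. Proteins that misfold in the endoplasmic reticulum set off the unfolded protein response, which raises chaperones such as BiP (Hspa5), while MHC class I molecules present peptides from inside the cell to T cells.

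In Cy5, 51.6 to 59.0% of probes lay well above background on the NRCWE-043 arrays and 42.8 to 54.2% on the NRCWE-045 arrays. All 10 arrays carried lung markers, with mean log2 ratios over the tested members of 4.55 to 5.14 for alveolar type 2 cells and 4.24 to 4.94 for club cells. Markers of heart muscle stood high on NRCWE-043 array 20 (mean log2 ratio 2.00) and NRCWE-045 array 13 (2.23), and did not pass 0.27 on the other 4 arrays of NRCWE-043. The NRCWE-045 arrays ran from -0.01 to 2.23, and array 13 did not stand far from the rest by the gap rule used further below. Slides 1 to 4 each held 1 array of both groups. Among the 5 controls, array 7 stood apart in most features with a large difference, though not in every gene described here. For 324 features with a large difference between the materials, its ratio lay nearer the NRCWE-043 mean than the NRCWE-045 mean in 315, against 2 to 32 features for the other 4 controls. In Nr1d1 the raw Cy5 signal was 1214 on control array 7 and 1288 on control array 29, with Cy3 at 410.5 and 386. The comparison of NRCWE-045 with NRCWE-043 does not use the controls except for the shared estimate of spread.

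Of 25534 features tested, 2186 (8.56%) were called at 18 µg by limma with a Benjamini-Hochberg adjusted p under 0.05, of which 1533 (6.00%) were higher and 653 (2.56%) lower with NRCWE-045. Groups of 5 did not overlap for 2108 features (8.26%), 1546 of them called. Before adjustment, 5790 of the 25534 features had a limma p under 0.05. The counts of unadjusted p in the lists below are to be read beside that number. Counts of called members are to be read beside the 6.00% higher and 2.56% lower over all features. Most differences were small, with a median size of 0.55 on the log2 scale among called features. A difference of at least 1 was found for 267 higher and 57 lower features. A difference of at least 2 was found for 53 higher features, 10 of them genes with a symbol, and for 2 lower ones, Hmox1 and Nr1d1. Calls fell to 372 when ratios were centred on the array median in place of loess, and to 1406 without NRCWE-043 arrays 5 and 10. Leaving out single arrays gave 1472 to 2481 calls, and the share of higher calls was 70.1%, or 60.0% (1212 of 2020 calls) with the Cy5 channel used alone. With slide as a fixed block 3501 features were called, and as a random block 3312. Of 78 called genes with a symbol that were followed over the alternatives, 32 kept the call with median centring. Beside genes with the largest differences or with small p at both doses, these were F13a1, Lrrn4 and Ptcra, and the other genes called within the lists below were not called there. With Cy5 alone 56 of the 78 kept the call. In lung tissue a difference can reflect fewer cells of a type or less RNA per cell, which these bulk samples cannot tell apart.

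**Figure D1:**
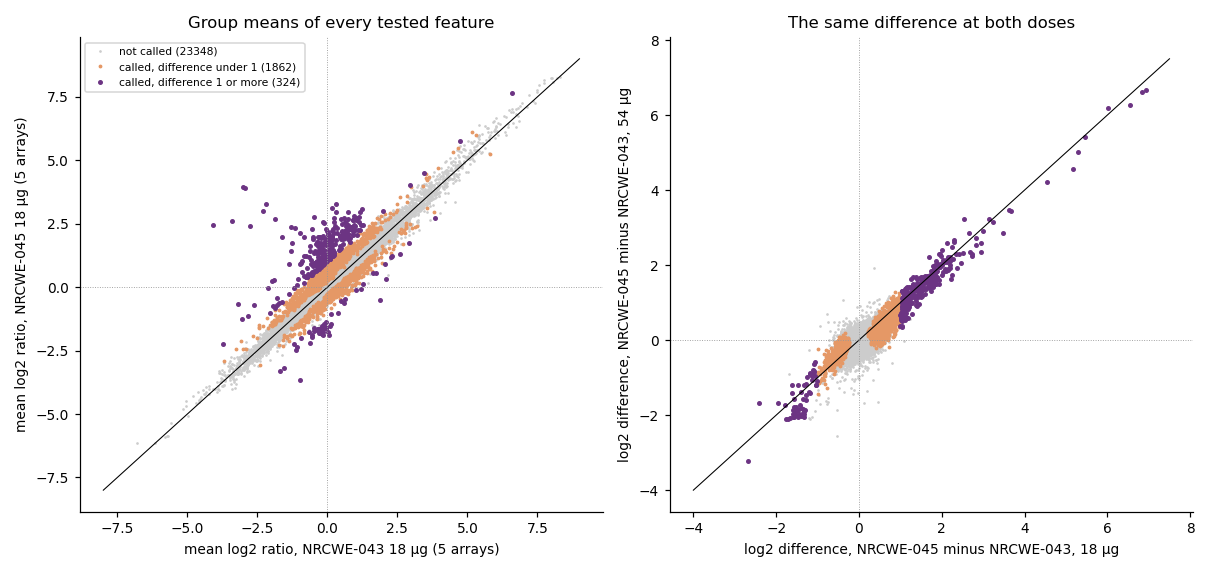
Left, the mean log2 ratio of each of 25534 tested features over the 5 NRCWE-043 arrays (x) and the 5 NRCWE-045 arrays (y) at 18 µg, with the 2186 called features coloured by the size of the difference. Right, the log2 difference between the materials at 18 µg (x) and at 54 µg (y), where the 324 called features with a difference of at least 1 lie along the line of equality.

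Hmox1 was the gene furthest below NRCWE-043. Its log2 ratios were -1.36, -0.62, -1.45, -0.91 and -0.50 on the NRCWE-043 arrays and -3.17, -3.52, -3.75, -3.82 and -4.04 on the NRCWE-045 arrays. Every NRCWE-045 array lay below every NRCWE-043 array, and the means were -3.66 ± 0.33 and -0.97 ± 0.43 (SD, n = 5 each). The difference was -2.69 (SE 0.32, adjusted p = 1.0e-06), a level 6.45-fold lower with NRCWE-045. In raw Cy5 signal, NRCWE-043 gave 944 to 5265 and NRCWE-045 303 to 559.5, while the reference signal in Cy3 ran over 4328 to 7960 and 4537 to 7107. The Cy5 ranges were apart and the Cy3 ranges overlapped. A second Hmox1 probe differed by -1.16 (adjusted p = 2.0e-04), the same direction at a smaller size. The call held under all 28 alternatives run for this gene.

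Beside Hmox1, the heme and iron list and the NRF2 list each held 1 call, where 8.56% of all features were called. Of 19 tested genes of heme and iron handling, Hmox1 was lower and Abcg2, an exporter that can carry porphyrins, was higher by 0.70 (SE 0.21, adjusted p = 0.027), and the median over the list was -0.06 beside 0.0015 over all features. The Abcg2 call was lost without any single one of NRCWE-043 arrays 5 and 10 and NRCWE-045 arrays 12 and 27 (adjusted p from 0.062 to 0.14). Among 21 NRF2 targets, Hmox1 was again the lower call, and the glutathione transferase Gsta3 was higher by 0.85 (SE 0.23, adjusted p = 0.016), with a list median of -0.03. Gsta3 was not called without NRCWE-043 array 10 (adjusted p = 0.09) or without NRCWE-045 array 12 (adjusted p = 0.052). Gclm, a subunit of the enzyme that starts glutathione synthesis, differed by -0.16 (95% interval -0.35 to 0.04, adjusted p = 0.33). Thioredoxin reductase Txnrd1 differed by -0.26 (-0.46 to -0.06, adjusted p = 0.092). None of 7 metallothionein and zinc transporter genes was called by limma or had an unadjusted p under 0.05, and Mt2, a metal-binding metallothionein, differed by 0.24 (-0.54 to 1.01).

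Nr1d1, which encodes the circadian repressor REV-ERB alpha, was also lower with NRCWE-045. Its log2 ratios were 1.43, 1.38, 2.23, 2.09 and 2.32 on the NRCWE-043 arrays and -0.09, -0.83, -0.40, -0.77 and -0.49 on the NRCWE-045 arrays. The groups lay apart, by -2.41 (SE 0.43, adjusted p = 2.9e-04). Of 17 clock genes tested, 2 were lower, Nr1d1 and Bhlhe40, beside 2.56% lower over all features. Nfil3, a repressor, was higher by 0.80 (adjusted p = 0.024), and Bhlhe40, another repressor, was lower by 0.65 (difference -0.65, adjusted p = 0.047). The calls of Nfil3 and Bhlhe40 did not hold without single arrays, which were NRCWE-043 array 5 and NRCWE-045 arrays 12, 13 and 25 for Nfil3 (adjusted p up to 0.061), and all but NRCWE-043 arrays 20 and 33 for Bhlhe40 (up to 0.14). Dbp, an output gene of the clock, had ratios of 1.63 to 2.58 with NRCWE-043 and -0.48 to 1.22 with NRCWE-045, and its difference of -1.69 (95% interval -2.98 to -0.41) had an adjusted p of 0.092. Per1 (0.59, adjusted p = 0.082) and Per2 (0.62, adjusted p = 0.068), repressors of the core loop, did not pass the threshold.

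Bax, whose product opens the outer membrane of mitochondria in apoptosis, was lower with NRCWE-045, at -2.02, -2.13, -2.26, -2.41 and -2.20 against -0.67, -0.52, -0.64, -0.74 and -0.61 with NRCWE-043. The spread within each group was far smaller than the difference of -1.57 (SE 0.25, adjusted p = 6.0e-05). Of 15 p53 targets, 3 were lower and 1 higher (2.56% and 6.00% over all features), with a list median of 0.08. The other lower calls were the apoptosis gene Bbc3, encoding PUMA (-0.51, SE 0.12, adjusted p = 0.0041), and cyclin G1, Ccng1 (-0.45, adjusted p = 0.017). The higher call was Sesn2, a stress-induced regulator of nutrient signalling (0.62, adjusted p = 0.034). Cdkn1a, which encodes the cell cycle inhibitor p21, differed by 0.55 (-0.14 to 1.25, adjusted p = 0.35), and by -0.02 on a second probe. Ccng1 lost its call without NRCWE-043 array 5 or 10 (adjusted p = 0.052 and 0.055). Sesn2 lost it without any single one of NRCWE-043 arrays 5, 10 and 20 and NRCWE-045 arrays 1, 12 and 27 (up to 0.11). With NRCWE-043 arrays 5 and 10 both left out, Bbc3 was not called (-0.39, adjusted p = 0.078). None of 20 cell cycle genes was called by limma, with 1 at an unadjusted p under 0.05.

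The remaining genes among the 15 largest lower differences came from varied pathways. The receptor tyrosine kinase Epha1 had log2 ratios of 1.92 to 2.31 with NRCWE-043 and 0.15 to 0.56 with NRCWE-045, a difference of -1.79 (SE 0.24, adjusted p = 7.1e-06). Sertad3, a transcriptional regulator, differed by -1.66 (adjusted p = 3.3e-05). Nucleolin, Ncl, a protein of ribosome assembly, differed by -1.61 (SE 0.21, adjusted p = 4.2e-06), while its second probe differed by -0.10 (adjusted p = 0.70). The TWEAK receptor gene Tnfrsf12a differed by -1.61 (SE 0.25, adjusted p = 3.8e-05), with ratios of -2.01 to -1.19 against -3.60 to -3.03. Lamtor2, a subunit of the complex that tethers mTORC1 to lysosomes, differed by -1.57 (adjusted p = 9.4e-06). Smaller differences were those of Ier3, an early stress gene (-1.41), the nuclear transport receptor Xpo7 (-1.36), the chloride channel protein Clic1 (-1.33), the oxysterol hydroxylase Cyp39a1 (-1.28), the antiviral tether Bst2 (-1.22) and the microtubule-binding Eml2 (-1.19). Their adjusted p lay between 1.5e-05 (Clic1) and 0.0054 (Bst2). Bst2 and Eml2 were not called with median centring (adjusted p = 0.20 and 0.099), and the second Xpo7 probe differed by 0.09. Gm5176, a predicted gene at -1.53 (SE 0.43, adjusted p = 0.022), lost its call without NRCWE-043 array 5 or 10 or NRCWE-045 array 13 (adjusted p from 0.070 to 0.084).

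In the higher direction H2-Q4, an MHC class I gene of the Q region, led the genes with a symbol. Its log2 ratios were 0.34, 0.26, 0.04, 0.66 and 0.18 with NRCWE-043 and 2.83, 3.18, 3.07, 2.46 and 3.29 with NRCWE-045. No NRCWE-043 array came near the NRCWE-045 range, and the difference was 2.67 (SE 0.32, adjusted p = 1.3e-06), or 6.37-fold. Slc26a1, a sulfate transporter, was at -0.12, 0.12, -0.27, -0.31 and -0.00 with NRCWE-043 and at 2.39, 2.60, 2.39, 2.52 and 2.81 with NRCWE-045. It was 6.32-fold higher (difference 2.66, SE 0.36, adjusted p = 8.9e-06), again with groups far apart. The raw Cy5 signal of the Slc26a1 probe was 167.5 to 245 with NRCWE-043 and 524 to 1824 with NRCWE-045.

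**Figure D2:**
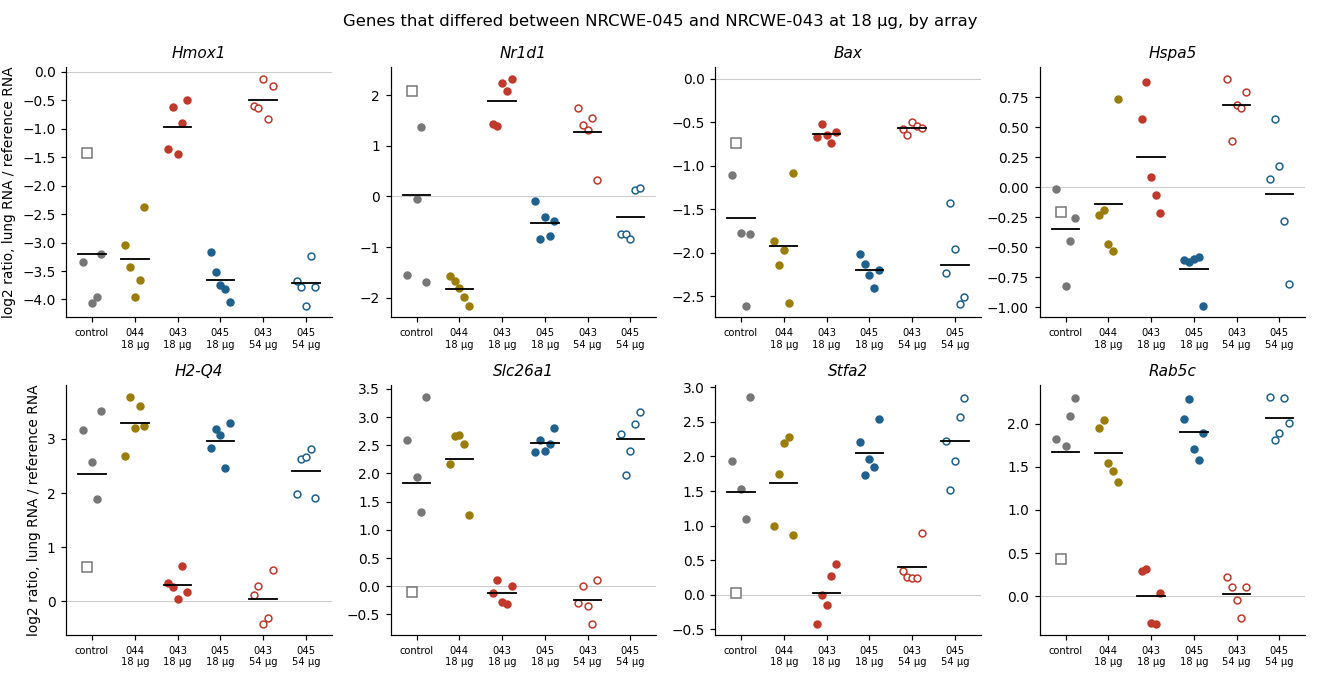
Log2 ratio of lung to reference RNA on each array for 4 genes lower with NRCWE-045 at 18 µg (top) and 4 genes higher (bottom), in controls, NRCWE-044, NRCWE-043 and NRCWE-045 at 18 µg and NRCWE-043 and NRCWE-045 at 54 µg. Each point is an array, bars are means of 5 arrays, and the open square is control array 7. In Hmox1 the NRCWE-043 arrays lie between -1.45 and -0.50 and the NRCWE-045 arrays between -4.04 and -3.17.

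The other MHC class I genes differed far less than H2-Q4. Of 20 tested genes of class I and peptide loading, 3 were higher and none was lower (6.00% and 2.56% over all features). Their median was 0.26 beside 0.0015 over all features. B2m, the light chain of class I molecules, was higher by 0.62 (SE 0.16, adjusted p = 0.01), and H2-Q7 by 0.51 (adjusted p = 0.045). The classical genes H2-K1 (0.46, adjusted p = 0.098) and H2-D1 (0.46, adjusted p = 0.063) and the Q-region gene H2-Q6 (0.40, adjusted p = 0.062) did not pass. The H2-K1 and B2m ratios were highest on NRCWE-045 array 27, without which B2m was not called (adjusted p = 0.059). H2-Q7 was not called without any single one of NRCWE-043 arrays 5, 10 and 20 and NRCWE-045 arrays 12, 13, 25 and 27 (adjusted p up to 0.19). Of 10 class II genes, H2-Aa, a chain of the I-A molecule, was higher by 0.96 (SE 0.23, adjusted p = 0.0060) and Ciita, the class II transactivator, by 0.38 (adjusted p = 0.044). H2-Aa ratios were 4.25, 5.05, 5.42, 5.56 and 5.51 with NRCWE-043 and 5.43, 6.12, 6.06, 6.32 and 6.66 with NRCWE-045. The groups overlapped, the lowest value was that of NRCWE-043 array 5, and without arrays 5 and 10 H2-Aa was not called (adjusted p = 0.13). With Cy5 alone the Ciita difference was 0.01 (adjusted p = 0.98) and that of B2m 0.33 (adjusted p = 0.11). Ciita was not called without any single one of NRCWE-043 arrays 20, 26 and 33 and NRCWE-045 arrays 1, 13 and 27 (adjusted p up to 0.13). Genes of the H2-Q group, like the stefin, histone H4 and serum amyloid A genes below, have close relatives, and whether a probe reads more than 1 of them was not tested.

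Beyond these, the 15 largest higher differences with a symbol held genes of unrelated functions. Rab5c, a GTPase of early endosomes, was at 0.29, 0.31, -0.32, -0.32 and 0.04 with NRCWE-043 and at 2.05, 2.29, 1.71, 1.58 and 1.89 with NRCWE-045 (difference 1.90, SE 0.22, adjusted p = 9.5e-07). Ulk3, a protein kinase linked to autophagy, was higher by 2.15 (SE 0.22, adjusted p = 1.7e-07), while its second probe differed by 0.02. Pign, an enzyme of GPI anchor synthesis, was higher by 2.14, the RNA-binding protein gene Raly by 1.98, and Sfi1, which encodes a centrosome protein, by 2.24. Stfa2, encoding a stefin that inhibits cysteine proteases, was at -0.42 to 0.45 with NRCWE-043 and 1.74 to 2.54 with NRCWE-045 (difference 2.03, SE 0.34, adjusted p = 1.2e-04). The other members were Pip5kl1 (2.01), and Fbxl12os (2.37), BC061237 (2.19), Gm10375 (2.11), 2810459M11Rik (1.99), 9230102O04Rik (1.89) and BC051226 (1.87), whose roles are not given in the files. That groups lie apart was part of the rule that chose these genes. The 15 calls held under all 28 alternatives. A second probe for BC061237 differed by 0.71 (adjusted p = 0.0051). Among genes with small p at both doses, Chtf8, which acts in sister chromatid cohesion (1.49), the histone H4 gene H4c8 (1.44) and Setd5, a SET domain gene (1.18), were higher, and with median centring Chtf8 and Setd5 were not called (adjusted p = 0.060 and 0.097).

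Of 21 tested genes of the unfolded protein response, 4 were lower with NRCWE-045 and none was higher. Over all features 2.56% were lower and 6.00% higher. The list median was -0.25, and 8 of the 21 genes had an unadjusted p under 0.05. Hspa5, the chaperone that holds the sensors of the response inactive, was at 0.56, 0.88, 0.08, -0.07 and -0.22 with NRCWE-043 and at -0.61, -0.62, -0.60, -0.58 and -0.99 with NRCWE-045. The groups did not overlap, NRCWE-043 arrays 5 and 10 were the highest, and the difference was -0.93 (SE 0.22, adjusted p = 0.0061). Edem1, which directs misfolded glycoproteins to degradation, differed by -0.65 (SE 0.16, adjusted p = 0.0064), and Sel1l, a part of the retrotranslocation complex, by -0.46 (SE 0.11, adjusted p = 0.0062). Xbp1, a transcription factor of the response, differed by -0.30 (adjusted p = 0.039). Hsp90b1, the chaperone GRP94, differed by -0.57 (-0.96 to -0.19, adjusted p = 0.053). Without NRCWE-043 arrays 5 and 10 none of the 4 was called (adjusted p = 0.15, 0.19, 0.10 and 0.30 in this order), and with median centring none was either (0.13, 0.053, 0.60 and 0.93). Xbp1 also lost its call without any single one of NRCWE-043 arrays 5, 10 and 20 and NRCWE-045 arrays 1, 12 and 27 (0.066 to 0.14).

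The promoter of Hspa5 is shown because it carries the element through which ATF6 raises chaperone genes, and because Hspa5 was the most different gene of that list. The window spans chr2:34771840-34772139 on the + strand of GRCm38.p6, from RefSeq, 300 bases that end 50 bases after the start of the gene, with the ER stress response element (CCAAT, 9 bases of any kind, CCACG) in capitals.
Hspa5: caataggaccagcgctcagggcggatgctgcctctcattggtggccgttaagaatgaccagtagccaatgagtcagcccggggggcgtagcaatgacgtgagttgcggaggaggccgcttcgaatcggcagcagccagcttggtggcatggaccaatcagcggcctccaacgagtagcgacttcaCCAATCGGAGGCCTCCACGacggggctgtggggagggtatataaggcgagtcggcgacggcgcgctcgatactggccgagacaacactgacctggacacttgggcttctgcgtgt
The element, searched on both strands, is in 35 of 27025 promoter windows (0.13%), and its first base in Hspa5 lies at -65 from the start. It was not in the windows of Xbp1, Edem1 or Sel1l. The other motifs searched, CACGTG, TGACGTGG, TGACGTCA, TGACNNNGC and TGACGCG, were in none of these 4 windows. A match describes the letters only.

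Immediate early genes went in differing directions, with 2 of 19 higher and 1 lower (Ier3), beside 6.00% and 2.56% over all features. The list median was 0.27. Klf2, a transcription factor of quiescent endothelium and T cells, was higher by 0.91 (SE 0.27, adjusted p = 0.031), and the antiproliferative Btg2 by 0.52 (adjusted p = 0.044). Klf2 ratios were 2.46, 2.93, 3.82, 4.22 and 4.24 with NRCWE-043 and 4.07 to 4.81 with NRCWE-045. The groups overlapped, the lowest values were those of NRCWE-043 arrays 5 and 10, and the call was lost without any single one of NRCWE-043 arrays 5 and 10 and NRCWE-045 arrays 1, 12, 13 and 27 (adjusted p up to 0.15). For Btg2 the same held without any single one of NRCWE-043 arrays 5, 10 and 20 and NRCWE-045 arrays 1, 12 and 27 (up to 0.15). Of 13 heat shock chaperone genes none was called by limma, with 1 at an unadjusted p under 0.05.

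Genes of the extracellular matrix included 3 lower and no higher calls among 25, beside 2.56% lower and 6.00% higher over all features. The list had a median of -0.09 and 11 genes at an unadjusted p under 0.05. Elastin, Eln, had ratios of 1.48 to 2.19 with NRCWE-043 and 0.40 to 1.41 with NRCWE-045, and differed by -0.996 (SE 0.24, adjusted p = 0.0055). The fibrillar collagen gene Col5a1 differed by -0.73 (SE 0.12, adjusted p = 7.3e-05) and Lox, which crosslinks collagen and elastin, by -0.64 (SE 0.16, adjusted p = 0.0083). Neither gene's groups overlapped, but the second Lox probe differed by -0.02, and with Cy5 alone Lox differed by -0.41 (adjusted p = 0.14). Col1a1 (-0.55, adjusted p = 0.063) and Col3a1 (-0.67, adjusted p = 0.13), the main lung collagens, did not pass, and with median centring none of the 3 calls held (adjusted p from 0.077 to 0.14). Of 12 fibroblast markers none was called by limma, with 3 at an unadjusted p under 0.05.

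In lipid metabolism, 2 of 23 cholesterol synthesis genes were lower and 1 was higher (2.56% and 6.00% over all features). They were Stard4, a sterol carrier (-0.63, adjusted p = 0.011), the sterol reductase Hsd17b7 (-0.58, adjusted p = 0.019), and Pmvk, a kinase of the mevalonate pathway (0.90, adjusted p = 0.015). Without NRCWE-043 array 10 none of the 3 was called (adjusted p = 0.054, 0.063 and 0.065), and without NRCWE-045 array 27 Hsd17b7 was not (0.056). The second Hsd17b7 probe differed by -0.18 (adjusted p = 0.40), and that of Pmvk by 0.99 (adjusted p = 0.041). For Stard4 the second probe differed by -0.42 (adjusted p = 0.026), with no array of at least 1 group well above background. Scd1, the fatty acid desaturase counted among the type 2 cell genes, was lower, at 2.23 to 3.14 against 3.51 to 4.07 (difference -1.10, SE 0.27, adjusted p = 0.0081).

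The lists of lung structural cells in this paragraph each held 1 call, beside 8.56% called over all features. Scd1 was the single call among 14 type 2 genes, and the surfactant gene Sftpc differed by 0.25 (-0.21 to 0.71, adjusted p = 0.56). Sftpb differed by 0.66 on the probe that stood for it, not called, and by 0.72 on a second probe (adjusted p = 0.019). Among 9 type 1 genes the water channel Aqp5 was lower (-0.57, SE 0.14, adjusted p = 0.0070), while its second probe differed by 0.05. Among 9 club cell genes Gsta3 was the single call, and the secretoglobin Scgb1a1 differed by 0.42 (0.02 to 0.82, adjusted p = 0.19). Among 12 ciliated cell genes the tubulin Tubb4b was lower (-0.79, SE 0.11, adjusted p = 1.0e-05), with ratios of 0.84 to 1.26 against 0.09 to 0.36. Rsph1 of that list differed by -0.57, not called, and by -0.56 on a second probe (adjusted p = 0.0072). Ramp2, which pairs with the adrenomedullin receptor, was the higher call of 16 endothelial genes (1.00, SE 0.23, adjusted p = 0.0044), and was not called without NRCWE-043 arrays 5 and 10 (0.15) or with Cy5 alone (0.41, adjusted p = 0.12). Among 8 mesothelium genes Lrrn4 was lower (-0.98, adjusted p = 0.015), and it was not called without the 2 arrays of high heart muscle markers (0.058).

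Markers of leukocytes were mixed. Of 17 neutrophil genes 3 were higher (Stfa2, the G-CSF receptor Csf3r and the amplifying receptor Trem1), beside 6.00% of all features. The list median was -0.01. Csf3r was at 0.82 to 1.47 with NRCWE-043 and 1.61 to 2.04 with NRCWE-045 (difference 0.70, SE 0.14, adjusted p = 7.8e-04), and Trem1 was higher by 0.61 (adjusted p = 0.0045), or by 0.29 with Cy5 alone (adjusted p = 0.22). With NRCWE-043 arrays 5 and 10 both left out, Trem1 was not called (adjusted p = 0.069). Cxcr2, the chemokine receptor by which neutrophils enter tissue, differed by -0.40 (-0.85 to 0.06, adjusted p = 0.29). Of 16 monocyte and interstitial macrophage genes 2 were higher and 1 lower (6.00% and 2.56% over all features), with a list median of 0.29. Itgam, the integrin CD11b, was at 0.56 to 0.89 against 2.02 to 2.67 (difference 1.54, SE 0.22, adjusted p = 1.2e-05), yet 2 further Itgam probes differed by -0.01 and -0.12. For Ms4a4c the ratio differed by 0.75 (SE 0.13, adjusted p = 2.1e-04) on the probe that stood for it, but its reference signal in Cy3 differed by -1.08 (adjusted p = 0.011) and its lung signal in Cy5 alone by -0.30 (adjusted p = 0.26), the opposite direction. It differed by -0.14 and -0.47 on 2 others, not called. F13a1, the coagulation factor of resident macrophages and monocytes, was lower by a difference of -1.13 (SE 0.18, adjusted p = 6.0e-05), at 1.76 to 2.33 against 0.47 to 1.44. None of 15 alveolar macrophage genes was called by limma, with 2 at an unadjusted p under 0.05, and Ear1, a ribonuclease of these cells, differed by 0.75 (0.03 to 1.46, adjusted p = 0.19).

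Lymphoid and dendritic lists are given beside the 8.56% of all features that were called. Siglech, a receptor of plasmacytoid dendritic cells, was higher by 0.73 (SE 0.15, adjusted p = 0.0012), the single call of 8 dendritic genes, or by 0.37 with Cy5 alone (adjusted p = 0.22). Its second probe differed by 0.35 (adjusted p = 0.22). Of 11 B and plasma cell genes, Jchain, the joining chain of secreted antibodies, was higher by 0.80 (adjusted p = 0.023) and the syndecan Sdc1 was lower (-0.52, adjusted p = 0.0062). Jchain was not called without NRCWE-043 array 20 or NRCWE-045 array 1 or 27 (adjusted p from 0.058 to 0.075). With NRCWE-043 arrays 5 and 10 both left out, Sdc1 was not called (adjusted p = 0.11). None of 16 T and NK cell genes was called by limma or reached an unadjusted p under 0.05. Ptcra, a thymic receptor gene, was higher by 0.41 (adjusted p = 0.0027), but was well above background on only 2 arrays of each group, and differed by 0.22 with Cy5 alone (adjusted p = 0.21).

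Single calls stood in several further lists, and each was lost without 4 or more of the 10 arrays taken singly. They were Trem2 of alternative macrophage activation (0.72, adjusted p = 0.039), Tiparp of xenobiotic metabolism (0.41, adjusted p = 0.040), the respiratory chain subunit Cox7a2 (0.58, adjusted p = 0.045), the RNA sensor Ifih1 (0.49, adjusted p = 0.049) and the NF-kB inhibitor Nfkbia (0.58, adjusted p = 0.020). All of them lost the call without any single one of NRCWE-043 arrays 5 and 10 and NRCWE-045 array 12 (without array 5, adjusted p = 0.161, 0.075, 0.215, 0.224 and 0.09 in this order). Other arrays whose absence ended a call were NRCWE-045 array 1 (Tiparp, Ifih1, Nfkbia), array 13 (Trem2, Cox7a2, Ifih1), array 25 (Tiparp, Cox7a2, Ifih1) and array 27 (all but Nfkbia), and NRCWE-043 arrays 20 and 26 (Tiparp). Second probes of Tiparp and Ifih1 differed by 0.24 (adjusted p = 0.38) and -0.13 (adjusted p = 0.56), not called. Beside Ifih1 the interferon list held Bst2 as its lower call among 25, and Isg15, a ubiquitin-like interferon product, differed by -0.99 (-1.70 to -0.27, adjusted p = 0.076). Cyp1a1, the marker gene of the aryl hydrocarbon receptor, differed by -0.01 (-0.50 to 0.49) and was well above background on 3 arrays of each group.

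**Figure D3:**
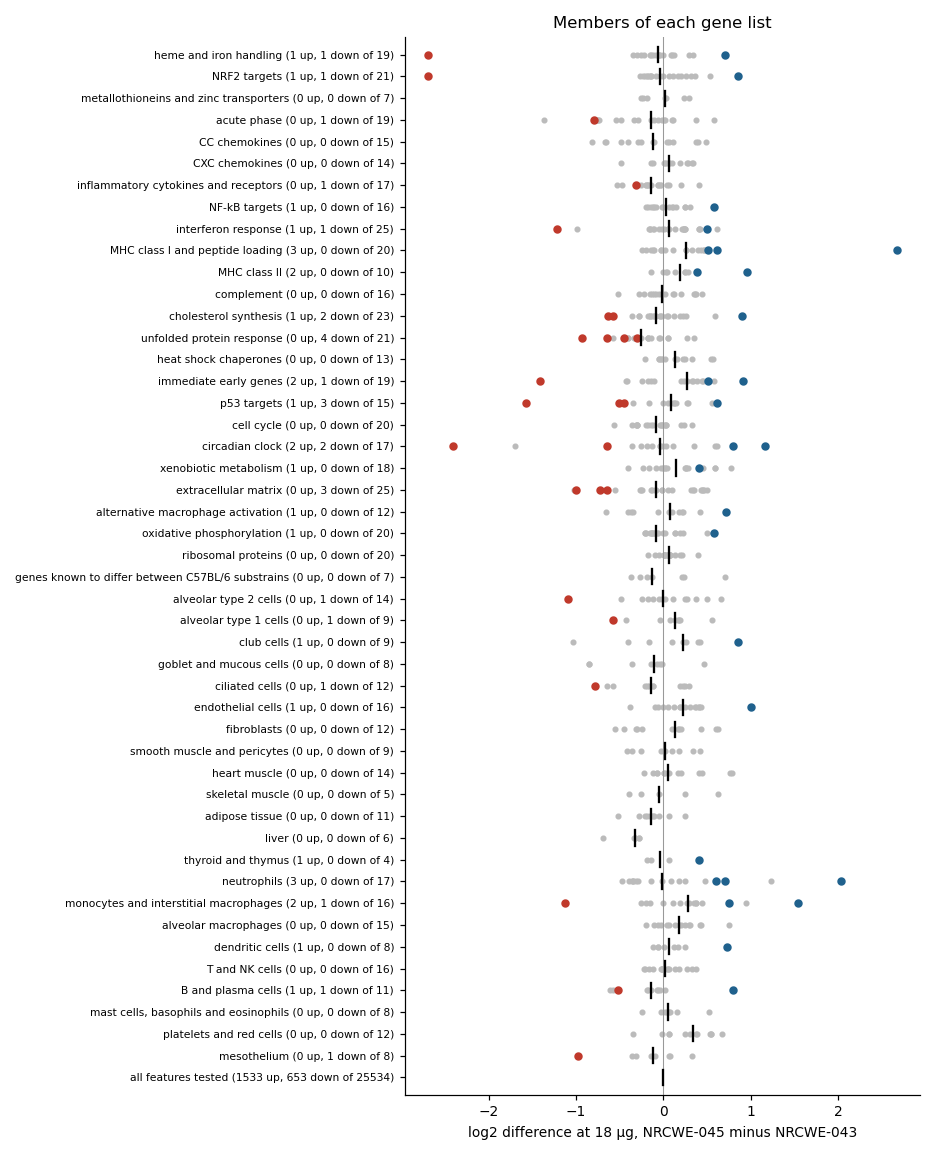
Log2 difference at 18 µg, NRCWE-045 minus NRCWE-043, of every tested member of 47 gene lists. Points are genes, grey where not called, blue where called higher and red where called lower, and black ticks are list medians. The last row gives the median of 25534 tested features, 0.0015, and the unfolded protein response shows 4 lower and no higher calls with a median of -0.25. Over all features 2.56% were called lower and 6.00% higher.

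Most inflammatory genes did not pass the test between the materials at 18 µg, as was so for most features (8.56% called). Saa3, an acute phase protein made by inflamed lung, had log2 ratios of -1.39, 2.61, -1.16, 0.70 and 1.17 with NRCWE-043 and 0.20, -1.49, 0.16, -1.87 and -1.90 with NRCWE-045. The groups overlapped widely, and the difference of -1.37 had an interval from -3.39 to 0.65 (adjusted p = 0.44). Saa1, of the same family, differed by -0.76 (-1.97 to 0.45, adjusted p = 0.48), and Lcn2, the iron-trapping lipocalin, by -0.29 (-1.001 to 0.41). Of 19 acute phase genes 1 was called, the copper carrier Cp (-0.79, adjusted p = 0.047), and that call was lost without any single array but NRCWE-043 array 33 and NRCWE-045 array 1 (adjusted p up to 0.14). The median over the list was -0.14.

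None of 15 CC chemokines was called by limma, with 1 at an unadjusted p under 0.05. Ccl2, which draws monocytes, was at -3.45, -2.46, -3.66, -3.55 and -3.37 with NRCWE-043 and at -3.66, -4.43, -3.07, -3.91 and -4.75 with NRCWE-045, a difference of -0.66 (-1.46 to 0.14, adjusted p = 0.33). Its relative Ccl7 differed by -0.82 (-1.65 to 0.01, adjusted p = 0.23). None of 14 CXC chemokines was called by limma, with 1 at an unadjusted p under 0.05. Cxcl5, which draws neutrophils, differed by 0.34 (-0.82 to 1.501) and the interferon-induced Cxcl10 by 0.01 (-0.94 to 0.96). Of 17 cytokine and receptor genes Il1a was called (-0.31, adjusted p = 0.022), at a level well above background on 3 NRCWE-043 arrays and on 0 NRCWE-045 arrays, which gives at least 1.2-fold against the floor. Without NRCWE-043 array 5 or 10 or NRCWE-045 array 27 it was not called (adjusted p up to 0.094). Il1b differed by -0.17 (-0.76 to 0.42), Il6 by 0.07 (-0.48 to 0.61) with 2 arrays of each group above background, and Timp1, an inhibitor of metalloproteinases, by -1.03 (-2.18 to 0.13, adjusted p = 0.28). The intervals do not show that the materials act alike, since those of Saa3 and Timp1 reach below -2.

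**Figure D4:**
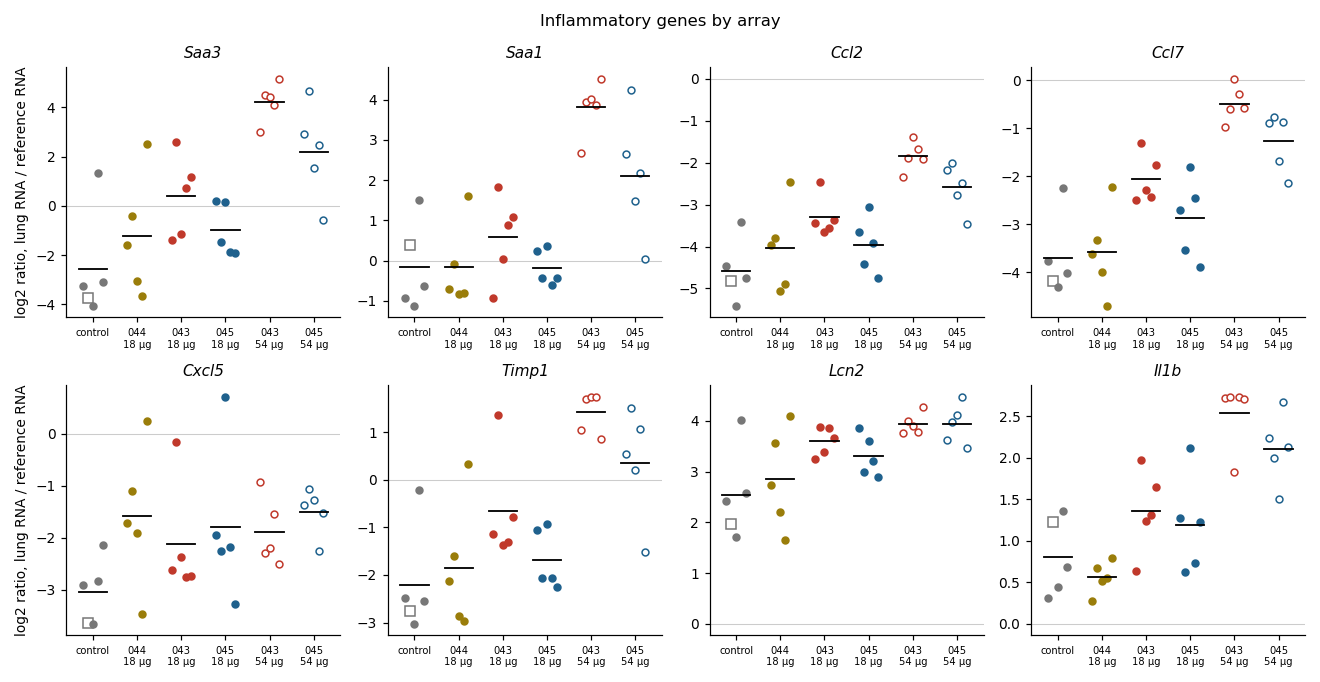
Log2 ratio of lung to reference RNA on each array for 8 inflammatory genes, in controls, NRCWE-044, NRCWE-043 and NRCWE-045 at 18 µg and NRCWE-043 and NRCWE-045 at 54 µg. Points are arrays, bars are means of 5, and the open square is control array 7. For Saa3 at 18 µg the NRCWE-043 arrays run from -1.39 to 2.61 and the NRCWE-045 arrays from -1.90 to 0.20.

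Many of the strongest differences belonged to features without a gene symbol. All 13 called features with a difference of at least 3 lacked one. The transcript ENSMUST00000099683 was at -2.25, -2.30, -3.63, -2.66 and -4.18 with NRCWE-043 and at 3.93, 3.75, 3.71, 3.70 and 4.56 with NRCWE-045, a difference of 6.94 (SE 0.66, adjusted p = 4.6e-08). It was well above background in Cy5 on 0 NRCWE-043 arrays and on 5 NRCWE-045 arrays, so its level was at least 32.8-fold higher with NRCWE-045, counted against the lowest signal well above background. The raw Cy5 signal was 87.5 to 110 with NRCWE-043 and 1101 to 6594 with NRCWE-045. The raw Cy3 signal of the same probe, in which both groups hold reference RNA, was 427 to 1209 with NRCWE-043 and 118 to 232 with NRCWE-045, so the reference channel differed in the opposite direction. The transcript ENSMUST00000099050, chosen like the first for its size, differed by 6.84, at least 26.4-fold.

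In the lower direction, the transcribed region chr19:5771425-5848475_F, named by the array design on mm9, had a mean of 0.05 ± 0.24 with NRCWE-043 and -1.90 ± 0.20 with NRCWE-045 (SD, n = 5 each), a difference of -1.95 (SE 0.23, adjusted p = 1.2e-06). The probe A_55_P2074081, with no accession, differed by -1.76 (SE 0.45, adjusted p = 0.010).

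Calls were counted by the kind of feature, without a test between kinds. Of 15356 features with a curated RefSeq mRNA, 679 (4.42%) were higher and 469 (3.05%) lower. Of the 10178 other features, 854 (8.39%) were higher and 184 (1.81%) lower. Among 3366 transcribed genome regions, 281 (8.35%) were higher and 53 (1.57%) lower, and among 528 curated non-coding RNAs 50 (9.47%) were higher and 8 (1.52%) lower. Full-length cDNA clones, at 10.3% higher and 2.52% lower, showed the same order. Of 712 regions with a tested feature on each strand, 122 had at least 1 strand higher, and 8 had both. At 54 µg, in other arrays, 2.52% of the curated mRNAs were higher and 1.69% lower, against 5.88% and 1.32% of the other features.

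**Figure D5:**
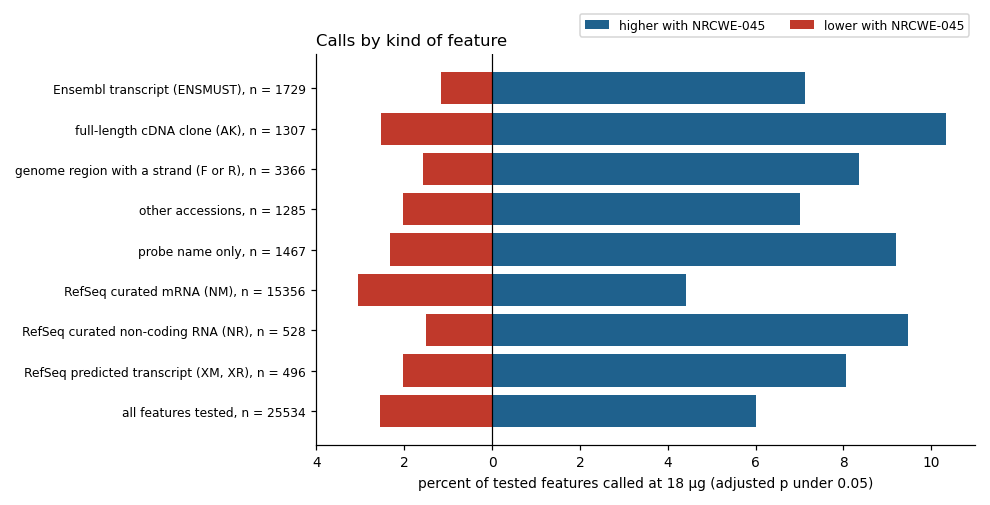
Percent of tested features of each kind called higher (right, blue) or lower (left, red) with NRCWE-045 than with NRCWE-043 at 18 µg, with the number tested beside each name. Curated mRNAs stand at 4.42% higher and 3.05% lower, while each other kind lies at 7.00% or more higher and 2.52% or less lower.

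The 2 channels and the further probes of a gene were set beside these calls. With the reference channel alone 122 features were called, 75 of them among the 2186, and all 75 differed in Cy3 against the direction of the ratio. Of the 324 large differences 8 were among them, and of the 13 features with a difference of at least 3, 5 were. With Cy5 alone 1257 of the 2186 features were called in the same direction, as were 298 of the 324 and all 13. For 383 called genes with further tested probes, 69 of 473 such probes (14.6%) were called in the same direction and 12 in the opposite one. Over all 3885 genes with several tested probes, 225 of 4607 further probes (4.88%) were called in the same direction and 79 in the opposite. For the 44 genes with a difference of at least 1, 7 of 51 further probes were called in the same direction and 2 in the opposite, and their median difference in the direction of the call was 0.009. Of these 51 probes 54.9% had the sign of the call, beside 57.8% over all genes with several tested probes. Hmox1, BC061237 and Eml2 (second probe -1.03, adjusted p = 0.023) were among the genes whose further probe was called too. Within slides, where 1 array of each group can be set side by side, 2125 to 2174 of the 2186 calls kept their sign (97.2 to 99.5%) on slides 1 to 4, and the 324 large ones did so on each of these slides. The features were chosen on these same arrays, so the shares are a description and no support.

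The same pair of materials was compared at 54 µg in 10 other arrays. There 1379 features (5.40%) were called, 985 (3.86%) higher and 394 (1.54%) lower with NRCWE-045. Of the calls at 18 µg, 992 were called at 54 µg too, which is 45.4% of the 18 µg calls and 71.9% of the 54 µg calls, and all 992 had the same direction. Among the 324 large differences 304 were called again. Hmox1 differed by -3.23 (adjusted p = 6.4e-08) at 54 µg, H2-Q4 by 2.35 (adjusted p = 1.2e-05), Slc26a1 by 2.85, Bax by -1.58 and Nr1d1 by -1.67 (adjusted p = 0.015). Of the genes with smaller differences, Hspa5 (-0.74, adjusted p = 0.043) and Edem1 (-0.54, adjusted p = 0.034) were called, and Xbp1 (0.03), B2m (0.14), Trem1 (0.17) and H2-Aa (0.36) were not. A test of the dose effect, the difference at 54 µg minus that at 18 µg, called none of 25534 features by limma, with 908 at an unadjusted p under 0.05, so no feature was shown to depend on dose. The acute phase list gave 4 lower calls of 19 at 54 µg, and Saa3 differed by -2.03 (adjusted p = 0.32).

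Each material was also set against the controls, in comparisons that share the 5 control arrays. NRCWE-045 at 18 µg gave no call by limma, with 710 features at an unadjusted p under 0.05, and NRCWE-043 at 18 µg gave 1086 (4.25%), 353 higher (1.38%) and 733 lower (2.87%). Hmox1 differed from control by -0.46 with NRCWE-045 and by 2.23 (adjusted p = 8.8e-05) with NRCWE-043. H2-Q4 differed by 0.61 and -2.06, Slc26a1 by 0.72 and -1.94, Nr1d1 by -0.55 and 1.86, Bax by -0.60 and 0.97, and Hspa5 by -0.33 and 0.60 in the same order. No NRCWE-045 difference from control was called, and that of Hspa5 with NRCWE-043 was not called either. For H2-Q4, Slc26a1, Nr1d1 and Bax, the test of NRCWE-043 against control is not given here. Control array 7 lay at -1.43 for Hmox1, against -4.07 to -3.21 on the other 4 controls, and at 0.64 for H2-Q4, against 1.90 to 3.52. In both genes it lay outside the range of the other controls on the side of NRCWE-043. Without that array, an alternative chosen after seeing the data, NRCWE-043 gave 1867 calls, NRCWE-045 gave none (544 at an unadjusted p under 0.05), and the comparison of the materials gave 2264. Against NRCWE-044 at 18 µg, sharing its 5 arrays, NRCWE-045 gave 116 calls (0.454%), 93 higher (0.364%) and 23 lower (0.0901%). NRCWE-043 gave 2781 (10.9%), 1396 higher (5.47%) and 1385 lower (5.42%).

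The 324 large differences were also followed on the arrays of the other groups. All 5 NRCWE-043 arrays at 54 µg were nearer the NRCWE-043 mean of 18 µg in 316 to 322 of the 324 features, control array 7 in 315, and every other control, NRCWE-044 and NRCWE-045 array in 1 to 95. The median NRCWE-043 ratio of these features lay close to 0, the level of the reference RNA, though single features such as Epha1 and Nr1d1 did not. The 267 higher features had a median ratio of -0.09 with NRCWE-043 and 1.67 with NRCWE-045, and the 57 lower ones -0.15 and -1.62. The NRCWE-043 mean was the nearer to 0 in 228 of the 267 and 43 of the 57 features, against 51.5% of all features. What sets the NRCWE-043 arrays and control array 7 apart was not tested.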

How the data were processed

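Per the file headers, the scanner files of 35 2-colour arrays hold spot intensities from Agilent Feature Extraction 11.0.1.1 on a design annotated on mm9. The authors also deposited log2 ratios (Cy5 over Cy3) of unknown normalization, used as an alternative. Median intensities were corrected with normexp (offset 50) and loess-normalized in limma 3.58.1 (R 4.3.3), with outlier spots dropped. Probes well above background on 3 or more arrays of a group were kept, and the brightest per gene gave 25534 features, named through RefSeq (GRCm38.p6). Models over all 35 arrays gave differences, SE, 95% intervals and Benjamini-Hochberg adjusted p.

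Named genes are the 15 largest called differences each way with a symbol and groups apart, up to 8 members of each of 47 lists by smallest p, 10 with the smallest p at both doses, and a few set in any case, of which Nnt was not tested. A gene that this rule selects is not reported here. At most 2 features without a symbol are named each way. Members and lists were chosen with earlier results of these data known. The fitting procedure was tested on simulated data. Alternatives changed the background, normalization, channel, filter, probe summary, slide block, arrays, variance model and weights.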

Additional observations from a re-analysis of the deposited data

Results flagged for a closer look

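Arrays that stood far from the other 4 of their group (gap over range above 0.71) were looked for in 216 pairs of a gene and a group and 94 pairs of a list and a group, where chance flags about 1 group in 20. The search found 10 pairs of a gene and a group and 12 pairs of a list and a group, with CXC chemokines flagged in both groups.

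On NRCWE-043 array 10 the inflammatory genes Ccl2 (-2.46), Cxcl5 (-0.15) and Timp1 (1.36) had the highest log2 ratio of their group, with the next array at -3.37, -2.37 and -0.79. On NRCWE-043 array 5 Ier3 (-0.23), Bst2 (-0.059) and Ptcra (-0.52) were the lowest, and on array 26 Gclm (-0.20) was the highest. On NRCWE-045 array 27 the class I genes B2m (1.66) and H2-K1 (3.23) were the highest and Hspa5 (-0.99) the lowest, and the mean ratio of the interferon list was the highest (0.91).

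NRCWE-045 array 13 had the highest mean ratio for CC chemokines (0.95, next 0.12), CXC chemokines (1.37), NF-kB targets (0.70), alternative macrophage activation (2.48), oxidative phosphorylation (-0.053) and goblet and mucous cells (3.69, next 2.10). NRCWE-043 array 20 had the highest for heart muscle (2.00, next 0.27), skeletal muscle (0.035) and liver (1.48). NRCWE-043 array 5 was the lowest for CXC chemokines (0.51) and NRCWE-045 array 1 for mesothelium (0.46). No named gene had all arrays on opposite sides at the 2 doses.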

How the results depend on the processing

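At 18 µg the main count of 2186 became 372 with median centring, 415 with treat against 1.2-fold, 122 in the Cy3 reference channel alone, 1406 without NRCWE-043 samples 5 and 10, 3501 with slide as a fixed block and 3312 with slide as a random block. Leaving out single arrays gave 1472 (without NRCWE-043 array 10) to 2481 (without NRCWE-043 array 26), and the 2 arrays of highest heart muscle markers 1744. At 54 µg the main 1379 became 536 with median centring, 2106 with array weights and 348 with treat, and single arrays gave 919 (without NRCWE-045 array 32) to 1370. The dose effect had 0 calls under every alternative run, also by limma. NRCWE-043 against control went from 1086 to 1867 without control array 7. The cause of these shifts was not tested, except that treat asks for a larger change. Of 3021 gene results under alternatives for 108 genes, 2664 kept their side of the threshold, of which 30, in 4 genes that were not called (Cxcl10, Cxcl5, Cyp1a1 and Il6), changed sign. A call was lost in 307, gained in 49 and reversed in 1, Ms4a4c with Cy5 alone (-0.30, adjusted p = 0.26). Hsp90b1, Per2 and Txnrd1 were among those that gained one. No paired analysis was possible because the replicate numbers are unique over the series and the groups share none, other than through the slide blocks given above. The number of arrays, 5 a group, limits the precision.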

Other observations

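Several lists not described above held no call at 18 µg by limma. The 6 tested liver genes all had differences below 0, from -0.69 to -0.28, with 1 at an unadjusted p under 0.05, and NRCWE-043 array 20, whose liver score was 1.48, is the highest of its group in that list. Alb, Fgb and Ttr of that list were well above background on 3 or 4 NRCWE-043 arrays and on 0 NRCWE-045 arrays. Against the floor this gives at least 1.2-fold for Alb and 1.3-fold for Fgb and Ttr, so the shared sign is no support. Of 12 platelet and red cell genes the median was 0.34, with 2 at an unadjusted p under 0.05, and NRCWE-045 arrays had mean ratios of 2.71 to 3.37 against 2.16 to 3.10. Complement genes had a median of -0.02 over 16, ribosomal protein genes 0.06 over 20, goblet and mucous cell genes -0.11 over 8, and mast cell, basophil and eosinophil genes 0.05 over 8. Adipose genes had a median of -0.14 over 11, smooth muscle and pericyte genes 0.02 over 9, heart muscle genes 0.05 over 14, and skeletal muscle genes -0.04 over 5. Of 7 genes known to differ between C57BL/6 substrains, 3 had an unadjusted p under 0.05 and the median was -0.13.

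The chemokine Ccl19, chosen after its values were seen, differed by 0.40 on the probe that stood for it, which was not called, while 2 further probes differed by 0.49 (adjusted p = 0.022) and 0.86 (adjusted p = 0.014).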
